A study of Homo sapiens with 9 samples.

Results

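Homologous recombination and Fanconi repair genes were followed in human BJ fibroblasts that were driven into senescence by an oncogene, with and without knockdown of a long non-coding RNA, lncRNA-OIS1, or of the proteins p53 and BRD7. The 38 genes were chosen by symbol, and all 38 were found among the 13745 genes of the deposited table. BJ cells are an established line of skin fibroblasts, here immortalised with hTERT. The study sequenced polyA RNA of 9 libraries. In 4 libraries RASG12V was active and lncRNA-OIS1 was knocked down with a different short hairpin in each (32-2, 32-3, 32-8 and 32-9, called lncRNA-OIS1 knockdown 1 to 4). In 1 library RASG12V was active and p53 was knocked down, and in 1 library RASG12V was active and BRD7 was knocked down. The 2 senescent libraries had active RASG12V and a non-targeting hairpin (500 or 507). The control was 1 library with the non-targeting hairpin 500, and its label names no RASG12V. The labels give 14 days of 4-OHT, the ligand that switches on an inducible RAS, for all 9 libraries, while the design text calls the control untreated. Replicates within a group carried different hairpins, so the p-values rest on a spread between hairpins. The labels do not say how many cultures were made per hairpin. The 3 groups of 1 library carry no replicate, and their p-values use that same spread.

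Homologous recombination mends breaks that cut both strands of DNA by copying the sister chromatid, and so works mainly in S and G2 phase. Ends are trimmed by nucleases, ATM and ATR signal the damage, BRCA1 and BRCA2 prepare the trimmed end for strand exchange, and further helicases and nucleases resolve the joined molecules. The Fanconi anaemia pathway acts on crosslinks between strands: its core complex attaches ubiquitin to the pair FANCD2 and FANCI, and repair is then handed to nucleases and homologous recombination. Many genes of both pathways are known targets of E2F factors in cycling cells, and repression of such genes is a known feature of senescent cells.

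The start regions of the genes are shown because many of the genes were high or low in the same libraries. RefSeq windows (GRCh38.p14, 250 bases before to 50 bases after a gene's start) were matched for 35 of the 38 genes, with 49 windows in all. FANCI, NBN and RAD54B were not matched. Both strands were searched for 4 exact E2F forms (TTTCCCGC, TTTCGCGC, TTTGCCGC and TTTGGCGC), for the cell cycle homology region core TTTGAA (CHR) and for CCAAT. An E2F form lay in 8 of the 49 windows (16.3%), against 4.79% of the 13212 windows of genes in the fit and 3.31% of all 35116 windows of the table. CCAAT lay in 25 windows of the members (51.0%), against 34.8% of those of genes in the fit. CHR lay in 6 (12.2%), against 10.6%. Median GC content was 64.3% in the windows of the members and 64.7% in those of genes in the fit. A match is a description of letters and does not show binding. The stretches of 30 bases around the E2F forms are given along the strand of the gene, with the form in capitals. The match began 172 and 46 bases before the start in FANCC, 172 before it in FANCA, 2 before it in FANCD2, 7 before it in TOPBP1, and at bases 4, 5 and 22 of the transcript in MSH6, EXO1 and XRCC2. In TIPIN it lay 66 bases before 1 of 2 listed starts and overlapped its own reverse complement. FANCC and EXO1 also had 2 windows and MSH6 had 4, so their distances are from 1 of several listed starts.
FANCC (chr9:95317863-95317892, minus strand): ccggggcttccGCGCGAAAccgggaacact
FANCC (chr9:95317737-95317766, minus strand): ttcgtcggaatTTTCCCGCgacgccgcggg
FANCA (chr16:89816801-89816830, minus strand): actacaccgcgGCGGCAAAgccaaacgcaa
FANCD2 (chr3:10026424-10026453, plus strand): cgtcgggcctgGCGGGAAAgtcgaaaacta
TOPBP1 (chr3:133661930-133661959, minus strand): ccgcgcggttgGCGCGAAAgtcggttcccg
MSH6 (chr2:47783137-47783166, plus strand): ctccccccagaTTTCCCGCcagcaggagcc
EXO1 (chr1:241848197-241848226, plus strand): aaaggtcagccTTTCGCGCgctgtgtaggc
XRCC2 (chr7:152676102-152676131, minus strand): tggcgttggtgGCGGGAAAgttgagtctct
TIPIN (chr15:66356733-66356762, minus strand): ccccgcacggaTTTGGCGCcaaacgctgcg

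FANCC held more E2F and CHR forms before a listed start than any other member with a matched window. Its 250 bases upstream of that start are printed whole for their layout, with the CHR core and both E2F forms in capitals.
FANCC upstream (chr9:95317710-95317959, minus strand): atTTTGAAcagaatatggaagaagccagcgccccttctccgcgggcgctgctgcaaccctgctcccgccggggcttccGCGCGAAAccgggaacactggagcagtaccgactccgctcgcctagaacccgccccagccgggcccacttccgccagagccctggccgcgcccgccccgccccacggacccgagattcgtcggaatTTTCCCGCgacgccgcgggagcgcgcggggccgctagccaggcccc

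Values are the authors' normalised read counts. Every library holds identical values in a different order (total 14916466.5, lowest value 20), so depth is unknown and a value states a rank within its library. The members lay between 37.6 and 2633.0, none at the floor. BRD7 stood at 94.6 in the BRD7 knockdown, which was 16.2% of its senescent mean of 583 ± 65.1 (SD, n = 2). LncRNA-OIS1 itself was not analysed here under that name. All 6 fibroblast markers were detected, with summed levels of 110674.2 to 152167.3 in the lncRNA-OIS1 knockdown libraries, 146494.5 with p53 knockdown, 140020.8 with BRD7 knockdown, 101258.1 and 88312.1 in the senescent libraries and 326301.2 in control. Of 8 markers of other cell types, KRT8, KRT18 and PTPRC were in the table, and PTPRC sat at the floor in each library but the control (156.6). The summed level of these 3 markers was 780.7 to 2105.3 in the lncRNA-OIS1 knockdown libraries, 1519.5 with p53 knockdown, 1746.3 with BRD7 knockdown, 1892.8 and 1617.5 in the senescent libraries and 3823.3 in control, where each of the 3 was above both senescent libraries. The part of other cell types in the results was not tested.

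In the senescent libraries 10 of the 38 genes were lower than in control and none was higher. A gene was called where limma's Benjamini-Hochberg adjusted p over all 12481 genes tested was under 0.05, and 7.1% of all genes were called lower and 7.95% higher. The called genes were BARD1, FANCD2, FANCC, USP1, TIMELESS, FANCI, BRCA2, BRCA1, FANCA and MSH6. The median log2 change of the 38 was -0.73, against 0.03 over all genes, and 28 of 38 were below 0. The control library lay above both senescent libraries for 27 of the 38 genes, a pattern held by 42.8% of all genes. Leaving out any 1 of 5 libraries ended most calls: none of the 10 stood without senescent 1 or senescent 2, and 3, 2 and 2 stood without lncRNA-OIS1 knockdown 1, 2 and 3, while 13 lower and 3 higher were called without lncRNA-OIS1 knockdown 4. In bulk RNA, fewer cells of a type and less RNA per cell cannot be told apart.

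Knockdown of lncRNA-OIS1 gave higher levels of most of these genes than senescence alone, but limma called no member, as it called no gene at all (0% higher and 0% lower). Of the 38 genes 34 were above 0, with a median log2 change of 0.72, against -0.02 over all genes. The lowest adjusted p of a member, 0.0788, was also the lowest of any gene. At an unadjusted p under 0.05, 24 members were higher, where 10.5% of all genes were, and 1 member, ATM, was lower, where 12% of all genes were. All 4 hairpin libraries lay above both senescent libraries for 27 of the 38 genes, a pattern of 17.1% of all genes. ATM alone lay below both in all 4, a pattern of 21.5% of all genes.

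Knockdown of p53 raised 15 of the 38 genes over the senescent libraries and lowered none, where 2.27% of all genes were called higher and 1.57% lower. The median log2 change of the 38 was 1.45, against 0.00 over all genes, and 36 of 38 were above 0. The 15 genes were EME1, BLM, BRCA2, FANCD2, RAD51AP1, EXO1, FANCI, FANCA, TIMELESS, BRCA1, UBE2T, XRCC2, TOPBP1, FANCG and XRCC3. Their adjusted p values lay between 0.0467 and 0.0476. All 15 calls were lost without senescent 1, senescent 2, or lncRNA-OIS1 knockdown 1, 2 or 3, each left out alone, and 20 higher and 1 lower (ATM) were called without lncRNA-OIS1 knockdown 4. With no trend in the variance moderation, 0 of the 15 calls stood. The p53 knockdown library held the highest level of the 9 libraries for 29 of the 38 genes, a pattern of 17.1% of all genes.

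Knockdown of BRD7 called no member, and over all genes 0% were called higher and 0.00801% lower, which was BRD7 itself. Of the 38 genes 35 were above 0, with a median log2 change of 0.93, against -0.02 over all genes, and 25 were higher at an unadjusted p under 0.05, where 6.81% of all genes were. The lowest adjusted p of a member was 0.196.

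The mean of the 3 knockdowns was higher than the senescent libraries for 19 of the 38 genes and lower for none, where 3.33% of all genes were called higher and 2.79% lower. The median log2 change was 1.06, against -0.02 over all genes. The 15 genes called with p53 knockdown were among the 19, with BARD1, H2AFX, MSH6 and USP1 besides, and 9 of the 19 were also called lower in senescent cells than in control. All of these comparisons share the 2 senescent libraries, so a low senescent value moves each of them. The p53 knockdown library is also 1 of the 3 groups in the mean. Both overlaps were therefore partly built in and are not separate support. All 6 knockdown libraries lay above both senescent libraries for 27 of the 38 genes, a pattern of 14.7% of all genes. The 19 calls were all lost without senescent 1, senescent 2, or lncRNA-OIS1 knockdown 1, 2 or 3, each left out alone, and 24 higher and 1 lower were called without lncRNA-OIS1 knockdown 4.

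**Figure D1:**
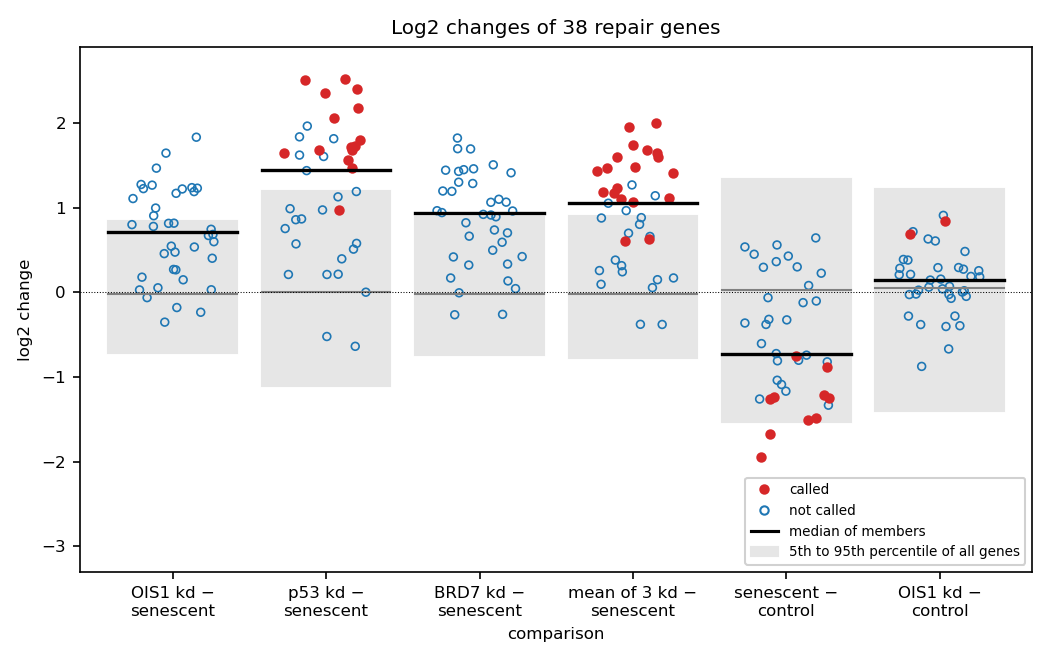
Log2 change (y axis) of each of the 38 repair genes in 6 comparisons (x axis), with called genes filled in red, the median of the 38 as a black line, and the 5th to 95th percentile and median of all 12481 genes in grey. The 38 genes lie mostly above 0 in each knockdown against senescent and mostly below 0 in senescent against control, with a median of 0.15 in lncRNA-OIS1 knockdown against control.

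Among nuclease sensors and end resection genes, BLM and EXO1 were called higher for the mean of the 3 knockdowns, and the 3 subunits of the MRE11 complex were not. BLM, the helicase that unwinds recombination intermediates and helps trim ends, measured 178.9, 265.0, 183.2 and 252.0 in lncRNA-OIS1 knockdown 1 to 4, 393.7 with p53 knockdown, 224.3 with BRD7 knockdown, 75.7 and 63.1 in the senescent libraries and 141.9 in control. Every knockdown library lay above the senescent pair and above control. The log2 change of BLM was 1.65 ± 0.23 (SE) for lncRNA-OIS1 knockdown (adjusted p = 0.0788, limma), 2.51 ± 0.32 for p53 knockdown (0.0467) and 1.95 ± 0.23 for the mean of the 3 knockdowns (0.0350). EXO1, the exonuclease of long-range trimming, measured 224.7, 330.7, 236.0 and 327.4 in lncRNA-OIS1 knockdown 1 to 4, 416.3 with p53 knockdown, 282.9 with BRD7 knockdown, 115.2 and 85.9 in the senescent libraries and 238.2 in control. Its control value fell among those of the lncRNA-OIS1 knockdown libraries. MRE11A, RAD50 and NBN, the complex that first binds broken ends, had log2 changes of 0.66, 0.10 and 0.24 for the mean of the 3 knockdowns, and none was called in any of these comparisons. MRE11A had 0.27 with lncRNA-OIS1 knockdown, 0.97 with p53 knockdown and 0.74 with BRD7 knockdown. Differences between genes were not tested. RBBP8 (CtIP), which starts trimming with that complex, was higher in all 6 knockdown libraries (421.1 to 746.0) than in both senescent libraries (351.4 and 303.3), with an adjusted p of 0.0713 for the mean of the 3.

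Of the 9 checkpoint kinases and partners, TIMELESS, TOPBP1 and H2AFX were called higher for the mean of the 3 knockdowns. TIMELESS, which protects stalled forks, measured 736.9, 911.2, 795.0 and 848.6 in lncRNA-OIS1 knockdown 1 to 4, 1151.9 with p53 knockdown, 954.6 with BRD7 knockdown, 381.6 and 319.8 in the senescent libraries and 834.6 in control. The senescent pair lay below all other libraries, and the log2 change was -1.26 ± 0.18 for senescent against control (adjusted p = 0.0146, limma), 1.23 ± 0.13 for lncRNA-OIS1 knockdown (0.0788) and 1.47 ± 0.13 for the mean of the 3 knockdowns (0.0350). TOPBP1, the activator of ATR, measured 1022.8, 1282.3, 976.0 and 1326.4 in lncRNA-OIS1 knockdown 1 to 4, 1940.3 with p53 knockdown, 1259.8 with BRD7 knockdown, 677.4 and 633.7 in the senescent libraries and 1156.8 in control. H2AFX, the histone that ATM and ATR phosphorylate beside breaks, measured 556.6, 838.9, 680.2 and 937.6 in lncRNA-OIS1 knockdown 1 to 4, 1140.1 with p53 knockdown, 687.8 with BRD7 knockdown, 378.4 and 362.1 in the senescent libraries and 648.1 in control. For both genes the p53 knockdown library was the highest and the senescent pair the lowest. ATM, ATR and the ATR partner ATRIP had log2 changes of -0.38, -0.38 and 0.06 for the mean of the 3 knockdowns, none of them called, and CHEK2 and TIPIN had 0.32 and 0.26. ATR, named after its values were seen, measured 750.0, 827.1, 899.0 and 1094.7 in lncRNA-OIS1 knockdown 1 to 4, 785.8 with p53 knockdown, 939.1 with BRD7 knockdown, 1065.7 and 1193.1 in the senescent libraries and 721.6 in control. Here lncRNA-OIS1 knockdown 4 lay between the senescent libraries and the control was the lowest.

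BRCA1, BARD1 and BRCA2 were each called lower in senescent cells than in control and higher for the mean of the 3 knockdowns, and PALB2 and BRIP1 were called in neither. BRCA1, a ubiquitin ligase with BARD1, measured 578.6, 808.4, 794.2 and 600.6 in lncRNA-OIS1 knockdown 1 to 4, 1257.8 with p53 knockdown, 893.4 with BRD7 knockdown, 425.6 and 358.0 in the senescent libraries and 902.9 in control. BARD1, its partner, measured 211.6, 375.3, 208.9 and 276.0 in lncRNA-OIS1 knockdown 1 to 4, 384.3 with p53 knockdown, 348.1 with BRD7 knockdown, 125.0 and 92.4 in the senescent libraries and 413.3 in control. BARD1 had the largest fall among the 38 genes in senescent against control, 3.85-fold (log2 change -1.94 ± 0.41, adjusted p = 0.0353, limma), and the control was its highest library. BRCA2, which acts at the trimmed end before strand exchange, measured 290.4, 417.6, 372.3 and 391.9 in lncRNA-OIS1 knockdown 1 to 4, 801.8 with p53 knockdown, 369.7 with BRD7 knockdown, 174.9 and 131.2 in the senescent libraries and 358.0 in control. The p53 knockdown was the highest library for BRCA2, with a log2 change of 2.40 ± 0.28 over senescent (adjusted p = 0.0467, limma), and the control lay within the range of the lncRNA-OIS1 knockdown libraries. PALB2, which links BRCA1 to BRCA2, ranged from 239.1 to 320.7 in the lncRNA-OIS1 knockdown libraries, with 322.3 and 285.6 in the senescent libraries. BRIP1, a helicase bound to BRCA1, ranged from 257.3 to 441.7 in the lncRNA-OIS1 knockdown libraries, with 286.8 and 241.2 in the senescent libraries and 662.4 in control. Though not called, BRIP1 had a log2 change of -1.33 in senescent against control, against -1.21 for BRCA1 and -1.24 for BRCA2. For the mean of the 3 knockdowns it had 0.80.

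**Figure D2:**
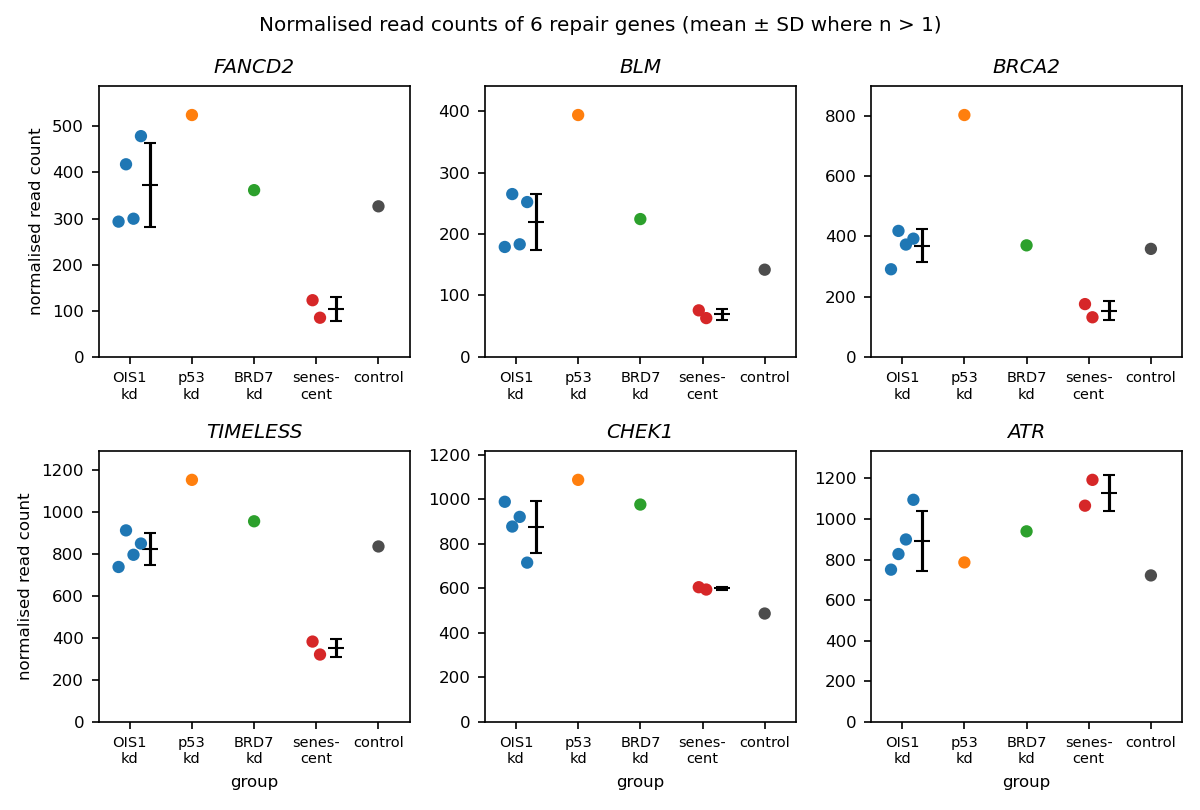
Normalised read counts (y axis, from 0) of 6 genes in each library by group (x axis), 1 point per library, with the mean ± SD beside groups of more than 1 library. FANCD2, BLM, BRCA2 and TIMELESS are lowest in the 2 senescent libraries, CHEK1 is lowest in control, and ATR is highest in a senescent library.

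All 6 genes of the strand exchange group had positive log2 changes in each knockdown against senescent, and 4 of the 6 were called for p53 knockdown and for the mean of the 3. EME1, a subunit of a nuclease that cuts joined molecules, measured 93.9, 128.7, 127.6 and 99.0 in lncRNA-OIS1 knockdown 1 to 4, 270.2 with p53 knockdown, 129.7 with BRD7 knockdown, 58.9 and 37.7 in the senescent libraries and 105.8 in control. Its change with p53 knockdown, 5.73-fold, was the largest of the 38 genes in that comparison, just above that of BLM (5.70-fold). The value of EME1 in senescent 2, 37.7, was close to the lowest of any member (37.6), so that fold rests on low values. RAD51AP1, which stimulates strand exchange, measured 287.6, 473.8, 326.2 and 386.1 in lncRNA-OIS1 knockdown 1 to 4, 715.6 with p53 knockdown, 431.3 with BRD7 knockdown, 170.2 and 147.6 in the senescent libraries and 276.3 in control. XRCC2, which supports strand exchange, measured 181.4, 262.1, 224.7 and 189.7 in lncRNA-OIS1 knockdown 1 to 4, 438.7 with p53 knockdown, 300.4 with BRD7 knockdown, 149.3 and 131.4 in the senescent libraries and 175.4 in control. For EME1, RAD51AP1 and XRCC2 the p53 knockdown exceeded every other library, and the senescent pair was lowest. XRCC3, which acts in the same step, measured 221.6, 242.3, 245.2 and 246.9 in lncRNA-OIS1 knockdown 1 to 4, 355.3 with p53 knockdown, 255.0 with BRD7 knockdown, 178.4 and 182.6 in the senescent libraries and 231.9 in control. Its exons overlap KLC1 on the opposite strand (GENCODE 29), and no source used here says if counting was stranded. The same holds for EME1 with LRRC59, FANCA with ZNF276, FANCI with POLG and MSH6 with FBXO11. On the same strand, exons of BRCA1 share 120 bases with AC060780.1, those of CHEK1 80 with STT3A and those of ATRIP 1515 with TREX1. Stranded counting would not separate these. RAD54L and RAD54B, motor proteins of strand exchange, had log2 changes of 1.14 and 0.88 for the mean of the 3 knockdowns and were not called.

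In the Fanconi core complex, 2 of 7 genes, FANCA and FANCG, were called higher for p53 knockdown and for the mean of the 3, and FANCA and FANCC were lower in senescent cells than in control. FANCA, a structural subunit, measured 360.3, 418.3, 354.3 and 396.1 in lncRNA-OIS1 knockdown 1 to 4, 560.8 with p53 knockdown, 451.2 with BRD7 knockdown, 192.1 and 149.3 in the senescent libraries and 313.0 in control. All 6 knockdown libraries exceeded the control, although lncRNA-OIS1 knockdown against control was not called (log2 change 0.28 ± 0.19, adjusted p = 0.377, limma). FANCG, which binds FANCA, measured 349.4, 428.6, 338.6 and 314.1 in lncRNA-OIS1 knockdown 1 to 4, 556.1 with p53 knockdown, 381.8 with BRD7 knockdown, 218.0 and 186.2 in the senescent libraries and 306.4 in control. FANCC, another core subunit, measured 159.8, 169.0, 125.9 and 218.6 in lncRNA-OIS1 knockdown 1 to 4, 128.8 with p53 knockdown, 147.8 with BRD7 knockdown, 75.2 and 66.2 in the senescent libraries and 200.4 in control. Here the p53 knockdown was below 3 of the 4 lncRNA-OIS1 knockdown libraries, and the gene was called in senescent against control (log2 change -1.51 ± 0.34, adjusted p = 0.0402, limma) but not for the mean of the 3 knockdowns (1.05 ± 0.24, 0.0592). FANCB and FANCE had log2 changes of 1.27 and 0.88 for that mean, neither called. FANCL, the ubiquitin ligase subunit, had 0.15, and FANCM, which brings the complex to DNA, had 0.38.

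All 4 genes of the Fanconi ID complex and its ubiquitin cycle were called higher for the mean of the 3 knockdowns, and 3 of them, FANCD2, FANCI and USP1, were lower in senescent cells than in control. FANCD2, which is loaded onto DNA with FANCI once ubiquitin is attached, measured 293.4, 417.8, 299.7 and 478.9 in lncRNA-OIS1 knockdown 1 to 4, 524.7 with p53 knockdown, 361.7 with BRD7 knockdown, 122.9 and 84.9 in the senescent libraries and 326.6 in control. With a mean of 373 ± 91.2 in the lncRNA-OIS1 knockdown libraries (SD, n = 4) and 104 ± 26.9 in the senescent libraries (SD, n = 2), it had the largest change of the 38 genes for that knockdown, 3.56-fold (log2 change 1.83 ± 0.28, adjusted p = 0.0788, limma). Its partner FANCI measured 801.8, 1210.1, 869.4 and 1167.8 in lncRNA-OIS1 knockdown 1 to 4, 1490.2 with p53 knockdown, 1150.6 with BRD7 knockdown, 477.0 and 382.2 in the senescent libraries and 1014.0 in control. UBE2T, the enzyme that passes ubiquitin to the pair, measured 318.3, 476.1, 342.0 and 354.0 in lncRNA-OIS1 knockdown 1 to 4, 738.7 with p53 knockdown, 529.9 with BRD7 knockdown, 234.0 and 227.9 in the senescent libraries and 300.2 in control. The senescent pair was lowest for each of these genes. USP1, which removes that ubiquitin, measured 792.3, 1259.1, 782.9 and 1190.2 in lncRNA-OIS1 knockdown 1 to 4, 1603.2 with p53 knockdown, 1122.8 with BRD7 knockdown, 488.0 and 424.6 in the senescent libraries and 1277.6 in control. MSH6, a mismatch recognition protein listed with these genes, measured 980.6, 1271.4, 1093.4 and 1197.4 in lncRNA-OIS1 knockdown 1 to 4, 1370.9 with p53 knockdown, 1225.7 with BRD7 knockdown, 816.8 and 808.4 in the senescent libraries and 1371.9 in control. For USP1 and MSH6 the control exceeded all 4 lncRNA-OIS1 knockdown libraries and the BRD7 knockdown.

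**Figure D3:**
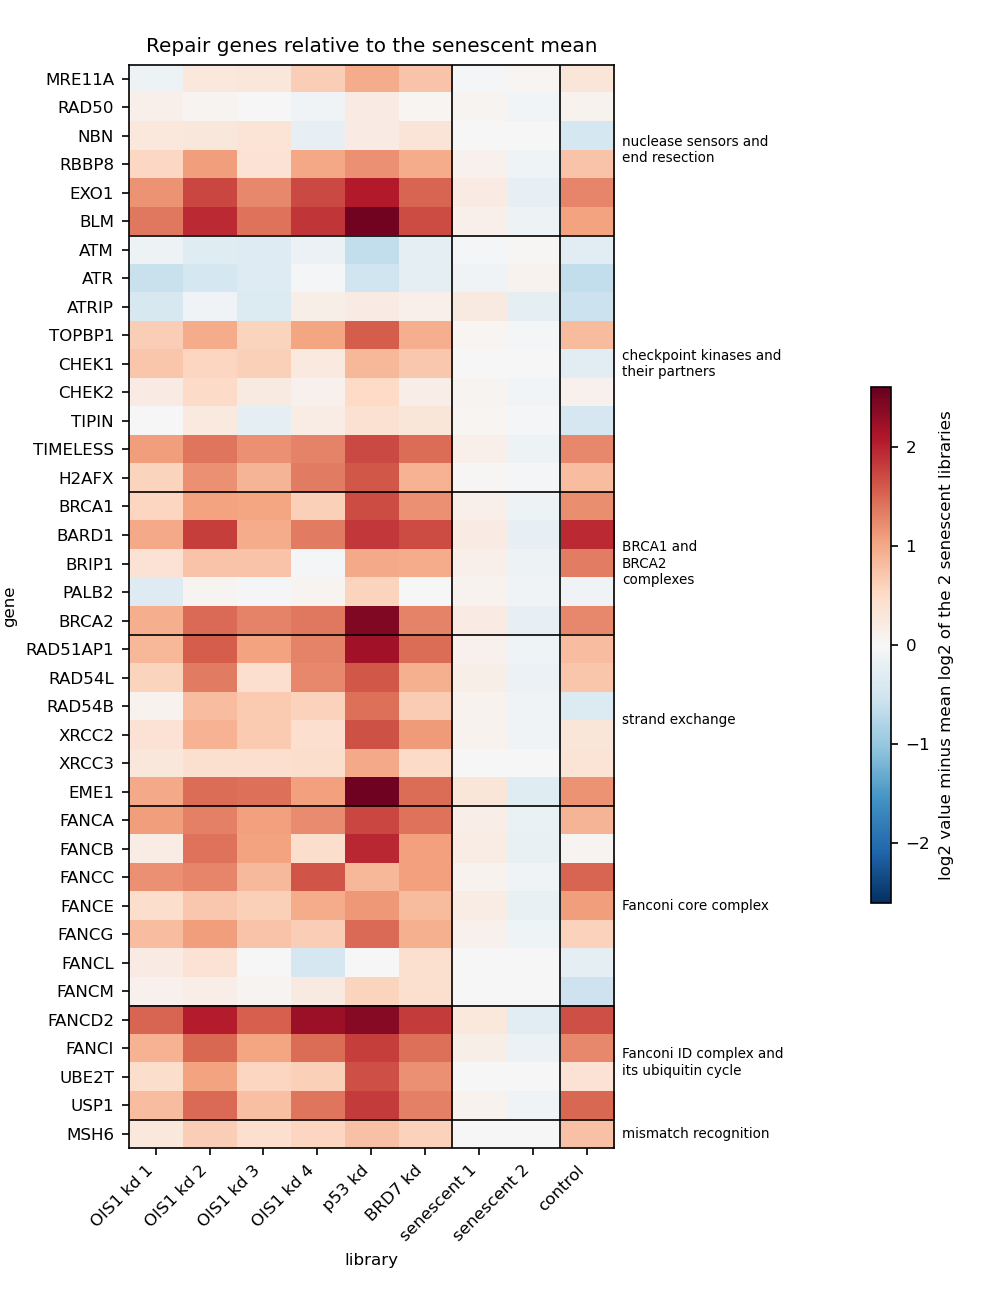
Log2 value minus the mean log2 of the 2 senescent libraries (colour) for the 38 repair genes (rows, grouped by role) in the 9 libraries (columns). The strongest red is in the p53 knockdown column, where 36 of 38 genes are above the senescent mean, and ATM and ATR are blue in most columns.

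The 4 lncRNA-OIS1 hairpin libraries differed among themselves. The median log2 difference of the 38 genes from the senescent mean was 0.50, 1.01, 0.65 and 0.63 in lncRNA-OIS1 knockdown 1 to 4, against 0.10 and -0.10 in the senescent libraries themselves. Knockdown 2 held the highest of the 4 values for 23 genes and knockdown 1 the lowest for 21. The ratio of the highest to the lowest hairpin library ran between 1.11 for FANCM and XRCC3 and 2.31 for FANCB.

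Against the other knockdowns, the lncRNA-OIS1 knockdown gave no call among the 38 genes. Against p53 knockdown 34 of 38 were below 0, with a median log2 difference of -0.57, against -0.02 over all genes, and 15 were lower at an unadjusted p under 0.05, where 5.59% of all genes were. Called genes made up 0.00801% of all genes, all of them higher in lncRNA-OIS1 knockdown. The differences ran between -1.28 ± 0.32 (SE) for EME1 and 0.40 for ATM, with adjusted p values of at least 0.435. Against BRD7 knockdown 33 of 38 were below 0, with a median of -0.16, against 0.00 over all genes, and a range of -0.53 for UBE2T to 0.16 for FANCC. Over all genes 0.00801% were called, higher in lncRNA-OIS1 knockdown. A missed threshold against lone libraries does not show that the knockdowns were alike.

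Compared with the control, lncRNA-OIS1 knockdown cells had 26 of the 38 genes above 0. The median log2 change was 0.15, against 0.05 over all genes. CHEK1 and FANCM were called higher and none lower, where 5.38% of all genes were called higher and 5.83% lower. As a share, 2 of 38 is close to that of all genes called higher. CHEK1, the kinase that ATR activates, is named with FANCM after its values were seen. It measured 988.2, 876.9, 920.3 and 714.7 in lncRNA-OIS1 knockdown 1 to 4, 1086.7 with p53 knockdown, 975.7 with BRD7 knockdown, 604.3 and 593.8 in the senescent libraries and 486.0 in control (log2 change against control 0.84 ± 0.19, adjusted p = 0.0452, limma). FANCM measured 225.7, 237.8, 222.1 and 247.4 in lncRNA-OIS1 knockdown 1 to 4, 312.7 with p53 knockdown, 281.8 with BRD7 knockdown, 211.4 and 208.9 in the senescent libraries and 144.8 in control (0.69 ± 0.14, adjusted p = 0.0348). The control library was the lowest for ATR, ATRIP, TIPIN, NBN and RAD54B, none of them called, and for the called genes CHEK1 and FANCM. Neither call stood without senescent 1, senescent 2, or lncRNA-OIS1 knockdown 1, 2 or 3, each left out alone, and the control is 1 library.

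For the mean of the 3 knockdowns against senescent, the lists of other homologous recombination, Fanconi and checkpoint genes had medians of 0.31, 0.13 and 0.55, against 1.06 for the 38 genes. In senescent against control their medians were -0.16, -0.35 and -0.60, against -0.73 for the 38 genes. The 38 genes and the lists were chosen with earlier results of these data known, so these gaps are no test of a difference. Of 30 other homologous recombination genes, 9 were called higher for the mean of the 3 knockdowns and none lower. Among them were MND1 (2.06 ± 0.34, adjusted p = 0.0372, limma) and RMI2 (1.76 ± 0.35, adjusted p = 0.0478). MND1 sat at the floor of 20 in senescent 1, so its fitted change depends on that floor. For p53 knockdown 5 of the 30 were called higher, led by PSMC3IP (1.58), DNA2 (1.53) and RMI1 (1.52), and RMI1 was the 1 called lower in senescent against control (adjusted p = 0.0447, limma). Of 17 other Fanconi and crosslink genes, RFWD3 (0.84) and DCLRE1A (0.77) were called higher for the mean of the 3 and RFWD3 (1.30) for p53 knockdown, while STRA13 was higher (0.91) and REV3L lower (-0.60) in senescent against control. Of 14 other checkpoint genes, 4 were called higher for the mean of the 3, led by PLK1 (1.91), CLSPN (1.48) and MDC1 (1.08). MDC1 (1.51) was called for p53 knockdown, and WEE1 (-1.69) and RAD1 (-1.09) were lower in senescent against control. None of the 6 tested non-homologous end joining genes was called for any knockdown against senescent, but 5 of the 6 lay above the senescent mean in each knockdown library. The median log2 difference of the 6 from that mean was 0.82 with p53 knockdown, against 0.42 for the other homologous recombination genes. With BRD7 knockdown both medians were 0.42. LIG4, the ligase of end joining, was higher in senescent than in control (1.28). In lncRNA-OIS1 knockdown against control, SFR1 (1.22), LIG4 (0.86) and XRCC5 (0.52) were called higher, and WEE1 (-1.13) and RAD1 (-1.06) lower. These were the only calls there among the lists of 30, 17, 14 and 6 genes. Over all genes 5.38% were called higher and 5.83% lower in that comparison. In senescent against control 7.95% were called higher and 7.1% lower. The few calls of these lists against control are therefore not read as a result about the lists.

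Markers of proliferation were lowest in the senescent libraries as well. The 10 markers had a median log2 difference from the senescent mean of 0.75, 1.53, 0.97 and 1.56 in lncRNA-OIS1 knockdown 1 to 4, 1.98 with p53 knockdown, 1.53 with BRD7 knockdown, 0.18 and -0.18 in the senescent libraries and 1.45 in control. The 38 repair genes had 1.45 with p53 knockdown, 0.93 with BRD7 knockdown and 0.73 in control. For the mean of the 3 knockdowns 5 of the 10 were called higher, MKI67 (2.22) and FOXM1 (2.05) with the largest changes, and 3 of 10 for p53 knockdown. In senescent against control MCM6 (-2.44) and FOXM1 (-1.58) were called lower. MKI67 measured 2574.2, 5049.7, 2960.2 and 5657.9 in lncRNA-OIS1 knockdown 1 to 4, 6931.1 with p53 knockdown, 5027.6 with BRD7 knockdown, 1231.3 and 972.4 in the senescent libraries and 3913.6 in control. The part of proliferation in the levels of the repair genes was not tested.

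**Figure D4:**
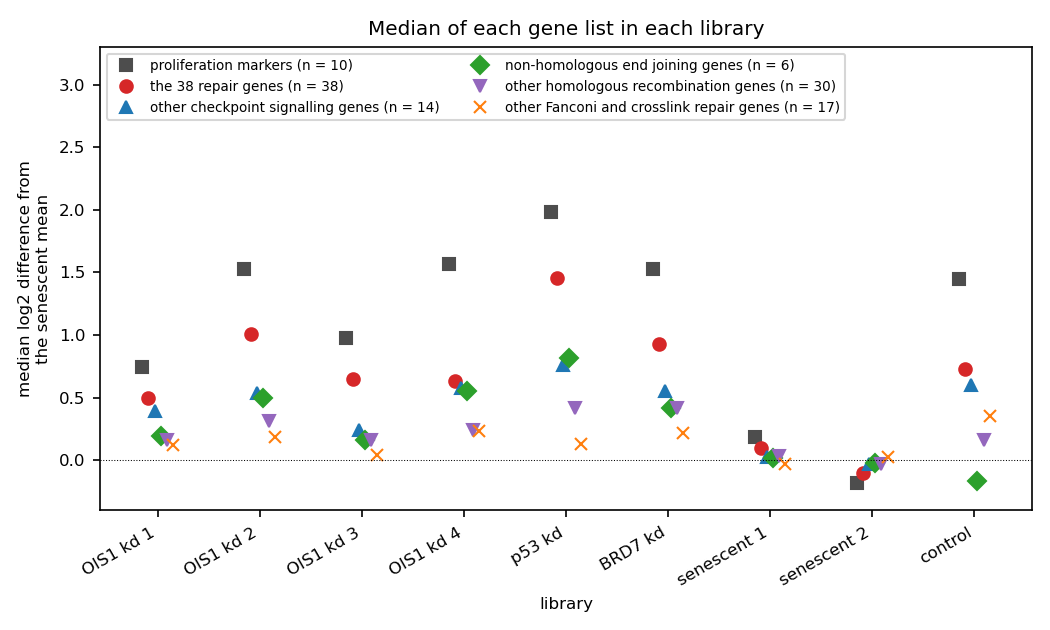
Median log2 difference from the senescent mean (y axis) of the 38 repair genes and of 5 other gene lists in each library (x axis). Proliferation markers and the 38 repair genes are the highest lists in each knockdown library, at 1.98 and 1.45 with p53 knockdown. Other Fanconi and crosslink genes stay within 0.24 of the senescent mean in the knockdown libraries. The genes and lists were chosen with earlier results of these data known, so gaps between them are no test.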

How the data were processed

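PolyA RNA of 9 samples was made into libraries with Illumina's TruSeq RNA preparation, per the labels' protocols. The deposited table holds, per gene and library, a signal that is a normalised read count. The submitters' processing notes name TopHat2, HTSeq and hg19, with neither role nor version. The authors' quantile normalisation and floor of 20 are known from the table's name and values, and depth could not be recovered. No column belonged to another series.

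The linear model of limma 3.58.1 (R 4.3.3) was fitted to log2 values of all 9 libraries in 5 groups, with 4 residual degrees of freedom and variances moderated with a trend, for 12481 genes reaching at least 40 in some library. The 3 lone libraries were assumed to vary like replicated groups. Tests were two-sided and adjusted over all genes, and the fit was tested on simulated data. Means are of linear values. Fold changes come from means of log2 values.

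The members and lists were chosen with earlier results of these data known. Named were members called in 1 of 5 comparisons (20 genes) and, per other list and comparison, up to 3 called genes in each direction. Other members named singly were chosen after their values were seen. A few tested genes are not reported here. The alternatives tried were a stricter filter (mean 80) or none, a pseudocount of 10 or 50, scaling by median of ratios, no trend, a replicate block, a fit of the 6 lncRNA-OIS1 knockdown and senescent libraries, and each replicate left out.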

Additional observations from a re-analysis of the deposited data

Results flagged for a closer look

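Over the 4 lncRNA-OIS1 knockdown libraries, 1 of the 38 genes had a library far from the other hairpins. NBN, a subunit of the MRE11 complex, measured 1468.9 in lncRNA-OIS1 knockdown 4, against 2059.3, 2071.1 and 2177.9 in knockdown 1, 2 and 3, a gap of 0.833 of the group's range. Chance flags about 1 in 20 groups, and 38 genes were checked.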

How the results depend on the processing

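No median of the 38 genes changed sign under any alternative run. With a pseudocount of 50, the median log2 change was 1.11 for p53 knockdown and 0.83 for the mean of the 3 knockdowns, each against senescent. Of the 10 calls lower in senescent against control, 7 stood without the variance trend, 7 without the filter and 8 with a pseudocount of 50. Without the variance trend, p53 knockdown against senescent had 0 members called higher, senescent against control 1 called higher (FANCM) and lncRNA-OIS1 knockdown against control 1. Median-of-ratios scaling also left 1 in that comparison, and without the filter lncRNA-OIS1 knockdown against senescent had 1 (TIMELESS). The replicate numbers name different hairpins and did not pair the samples (r of deviations -0.07 and -0.10). With a replicate block 0 members were called in each of these comparisons. That block took up most of the 4 residual degrees of freedom, so it cannot show how well the calls hold. The cause of the other changes was not tested. Leaving out each replicate in turn gave 0 to 13 members lower and 0 to 3 higher for senescent against control, 0 to 1 higher for lncRNA-OIS1 knockdown against senescent, 0 to 20 higher and 0 to 1 lower for p53 knockdown, 0 to 24 higher and 0 to 1 lower for the mean of the 3, and 0 to 3 higher for lncRNA-OIS1 knockdown against control. Lone libraries and the unknown depth limit the precision.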
